A study of Mus musculus with 18 samples.

Results

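Tumor-infiltrating T cells of mice treated with antibody against PD-L1 were sequenced in a first and a second library set, and the comparison here sets the second against the first. Membership followed the replicate number in the sample labels: replicates 1 to 3 of each genotype made up set 1 and replicates 4 to 6 made up set 2, which gave 12 of the 18 samples of the series, 3 in each of 4 groups. The labels number the libraries 31 to 33 and 37 to 39 in set 1 and 43 to 48 in set 2. They do not say what separated the sets (mice, day, preparation or run). The other 6 samples, from mice given the control antibody IgG2b, carry the numbers 28 to 30 and 34 to 36 and had no counterpart in set 2, so they entered no test and are given only as values beside the others.

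All mice were C57BL/6, either wild type or carrying the Nr2f6-/- deletion in every cell, and all received 500000 B16-OVA cells under the skin. B16-OVA is a mouse melanoma line that makes ovalbumin as a model antigen. The anti-PD-L1 or IgG2b antibody (0.5 mg) was injected into the abdominal cavity 2 times a week from day 3. Tumors were taken at day 14, CD4+ and CD8+ cells were enriched with beads and pooled, and CD3+ cells were sorted for RNA. By the age range that the study's methods give for tumor injection the mice were young adults. Whether a sample held more than 1 mouse was not given in the sources used here, so the p-values below measure the spread between these samples. The measurement was a 3′ mRNA library, in which a read comes from the end of a polyadenylated transcript, and the unit was the normalised read count.

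PD-L1 is the ligand that engages PD-1 on activated T cells and restrains them, and Nr2f6 encodes an orphan nuclear receptor that represses cytokine genes in T cells. T cells that are activated or dividing make more ribosomes and draw on glycolysis, and their RNA is dominated by transcripts of translation, the cytoskeleton, antigen presentation and the mitochondrial genome. Many of these transcripts have processed pseudogenes, near-identical copies elsewhere in the genome, so that a short read can be assigned to more than 1 gene.

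The 12 libraries held 12473391 to 18609482 reads on genes, recovered from the normalised values as whole numbers, and 11107 to 12813 genes with at least 1 read. Nr2f6 had 0 reads in all 6 Nr2f6-/- samples and normalised counts of 26.1 to 201 in the 6 wild-type samples. The Cd4 and Cd8a transcripts, which mark the pooled T cell classes, were present throughout, with 1669 to 7358 for Cd4 and 5361 to 17119.5 for Cd8a. The log2 ratio of Cd8a to Cd4 ran from 1.16 to 3.02 in set 1 and from -0.32 to 3.08 in set 2, and the difference of -0.68 did not pass the exact permutation test of the set label within genotype (p = 0.265, two-sided).

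None of the 6 library measures differed between the sets by that test after adjustment over the measures. Ribosomal protein transcripts took 13.3% ± 2.85 (SD, n = 6) of all values in set 1 and 15.2% ± 0.708 (SD, n = 6) in set 2 (exact permutation p = 0.075, adjusted p = 0.225). Mitochondrially encoded transcripts took 6.19% ± 1.84 in set 1 and 5.01% ± 1.66 in set 2 (SD, n = 6 each, exact permutation p = 0.245, adjusted p = 0.375). Within genotypes the mitochondrial share moved in opposite directions: it was 4.47% to 4.85% in set 1 and 4.80% to 7.06% in set 2 of Nr2f6-/- samples, and 6.91% to 8.90% against 3.14% to 4.27% in wild type. The number of reads was 15415400 in set 1 and 17375300 in set 2 on average (exact permutation p = 0.065, adjusted p = 0.225).

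In the average over both genotypes 45 of 11854 genes passed the threshold, 34 higher and 11 lower in set 2, which was 0.38% of the genes tested (limma, Benjamini-Hochberg adjusted p under 0.05). In Nr2f6-/- samples 84 genes passed (0.709% of genes tested), 72 higher (0.607%) and 12 lower (0.101%). In wild-type samples 1 gene passed, the mitochondrial mt-Nd2 (0.00844% of genes tested). The difference of the set effect between the genotypes was itself tested and held for 4 genes (0.0337%), so the unequal counts do not show that the other genes differed by genotype. Of the 45 genes, 43 had the same sign in wild type and Nr2f6-/-, 35 differed more in Nr2f6-/-, and 32 also passed in Nr2f6-/- alone. The 45 were selected by the mean of the 2 genotype differences, which makes the same sign likely. Leaving out any 1 sample gave between 0 and 40 calls in the average, of which 0 to 31 were among the 45. All 45 genes kept their direction under every alternative, but these fits share most of their samples, so this is no independent support. Casc3, Fam92a, Nip7, Peli1 and Smarcc1 passed in 0 of the 12 fits without 1 sample. The count test edgeR called 22 of the 45. Genes named below that it did not call were Gapdh, Casc3, Smarcc1, Map2k3, Hmgn1, Rpl35, Tpt1, Fau, Nip7, Peli1, Mbnl1, Cox6a1 and mt-Nd1. Their adjusted p in edgeR ran from 0.0537 to 0.108. At an unadjusted p under 0.05 there were 1126 genes, 594 of them higher in set 2 and 532 lower.

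**Figure D1:**
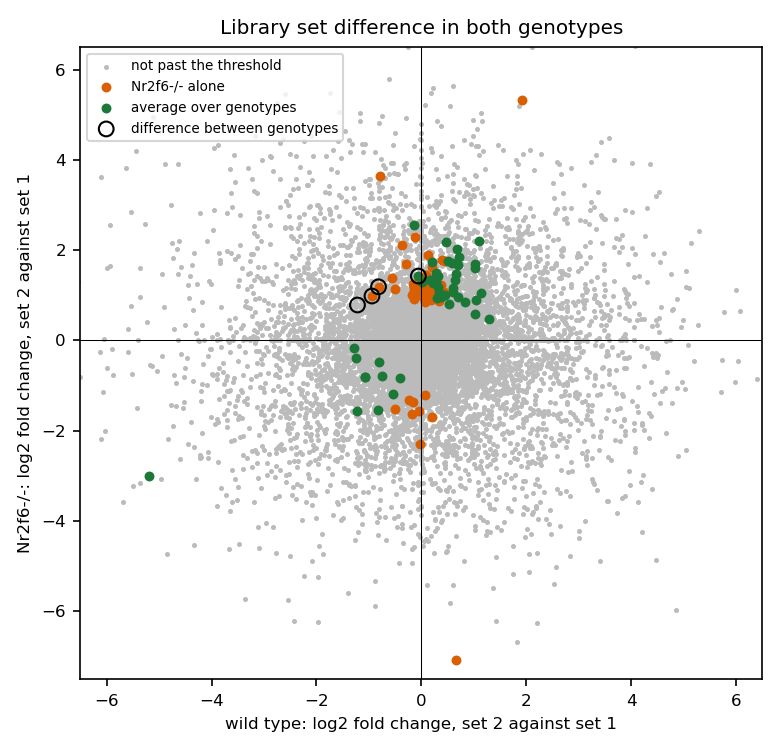
Each point is 1 of 11854 genes, with the log2 fold change of set 2 against set 1 in wild type (x axis) and in Nr2f6-/- (y axis); green marks the 45 genes past the threshold in the average, orange those past it in Nr2f6-/- but not in the average, and circles the 4 whose difference between genotypes passed. Most coloured points lie above 0 on the y axis, and 6 genes fall outside the axes.

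H2-T23, which encodes the nonclassical class I molecule Qa-1 that presents peptides to inhibitory NKG2 receptors, rose the most among the 8 genes that passed the threshold and whose sets did not overlap. Its normalised counts were 1057, 1056 and 1511 in the Nr2f6-/- samples of set 1 and 6301, 4106 and 6373 in those of set 2. In wild type they were 1311, 4098 and 2681 in set 1 and 5097, 4791 and 5817 in set 2. Every set 2 sample was above every set 1 sample, and wild-type replicate 2 of set 1 was just below the lowest of them. The log2 fold change was 1.65 ± 0.22 (SE) with an adjusted p of 0.000905. The IgG2b samples of set 1 lay between 987 and 1679, beside the lower set 1 values. The gene lies at chr17:36029773-36032855 of GRCm38. It belongs to a family of closely related class I genes, and although no near-identical 3′ end was found for it, the counting could divide reads among them.

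Psap, the precursor of the lysosomal saposins, had counts of 5177, 2693 and 3275 in Nr2f6-/- set 1 and 10562, 10598 and 14024 in set 2. Wild-type counts were 3609, 4429 and 8344 in set 1 and 14071, 9452 and 8327 in set 2, so that only replicate 3 of set 1 reached the set 2 range. Its log2 fold change was 1.36 ± 0.20 (SE, adjusted p = 0.00225). The IgG2b samples ranged from 4911 to 15007 and spanned both sets. Of all 45 calls, H2-T23 passed in 9, Psap in 6 and Rps16 in 5 of the 12 fits that left out 1 sample, more than any other gene.

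Set 2 also had higher Gapdh, the glycolytic glyceraldehyde-3-phosphate dehydrogenase, without overlap. Counts were 734, 382 and 205 in Nr2f6-/- set 1 against 1252, 1782 and 1780, and 815, 1205 and 937 in wild-type set 1 against 1783, 1568 and 1366. The log2 fold change was 1.36 ± 0.28 (SE, adjusted p = 0.033). Gapdh has 87 near-identical copies in the transcript annotation, 2 of them in the table. It was the only member of the glycolysis and hypoxia list to pass of 28 tested, and the list's median of 0.17 stood beside -0.01 for all genes tested. Ldha, which encodes lactate dehydrogenase, was at -0.05 ± 0.13 (SE, adjusted p = 0.94).

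The other 6 genes that passed the threshold in the average and rose without overlap between the sets encode RNA-binding, chromatin, kinase and cytoskeletal proteins. Hnrnpa1, an RNA-binding splicing factor, ranged from 386 to 748 in set 1 and from 951 to 1727 in set 2 (log2 fold change 1.19 ± 0.25 SE, adjusted p = 0.0365). Casc3, a core protein of the exon junction complex, ranged from 487 to 1368 and from 1592 to 2837 (1.09 ± 0.24, adjusted p = 0.0448). Smarcc1, a scaffold subunit of the SWI/SNF chromatin remodelling complex, ranged from 550 to 1717 and from 1733 to 3034 (0.99 ± 0.21, adjusted p = 0.0407). For Smarcc1 the highest set 1 and the lowest set 2 sample were thus adjacent. Map2k3, a kinase that activates p38, ranged from 1415 to 2822 and from 2951 to 4273 (0.85 ± 0.19, adjusted p = 0.0407). Hmgn1, a nucleosome-binding protein, ranged from 1203 to 2264 and from 2407 to 3569 (0.81 ± 0.18, adjusted p = 0.0492). Tpm3, a tropomyosin of the actin cytoskeleton, ranged from 8709 to 13946 and from 14318 to 18558 (0.67 ± 0.13, adjusted p = 0.0232). Over all genes tested, 63 (0.531%) did not overlap between 6 and 6 samples, and 13 of the 45 called genes were among them. The calls were made on the same values, so the missing overlap is no separate support.

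**Figure D2:**
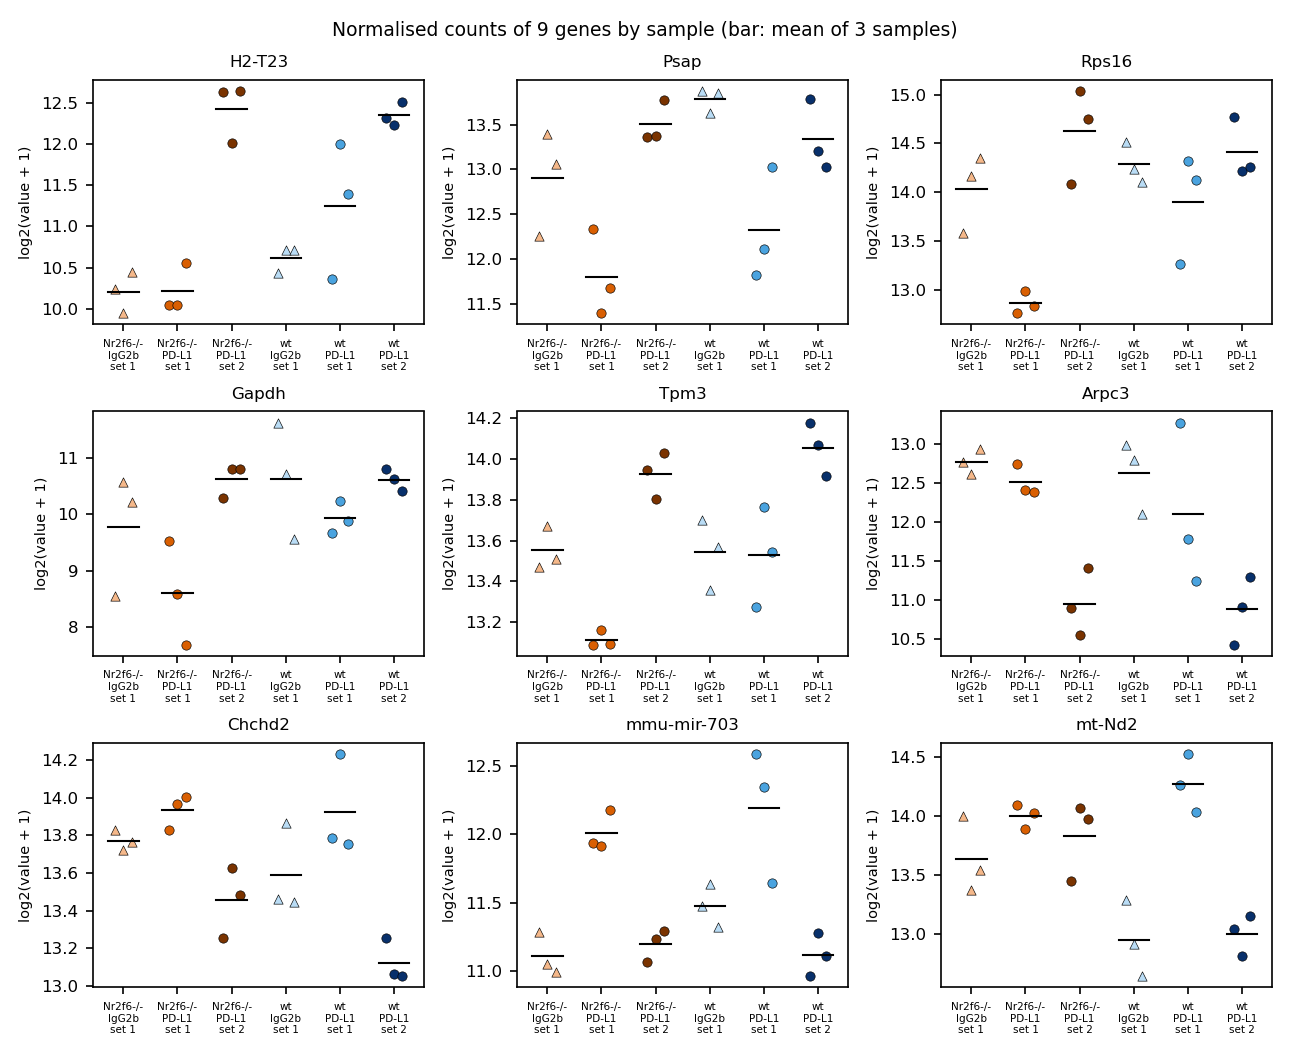
Normalised counts of 9 genes on the log2(value + 1) scale for all 18 samples by group, with triangles for IgG2b, circles for anti-PD-L1 and a bar for the mean of 3 samples. H2-T23 in the set 2 samples lay between 4106 and 6373, all above the set 1 and IgG2b samples, whereas mt-Nd2 differed between the sets in wild type, with 16812 to 23608 against 7181 to 9104.

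Ribosomal protein genes were the gene group with the most calls. Of 78 cytosolic ribosomal protein genes tested, 12 rose in the average and 0 fell, against 0.287% of all genes tested that rose. Leaving out 1 sample gave 0 to 11 calls in this list, with 0 in 7 of 12 such fits (without Nr2f6-/- replicates 1, 3, 5 or 6, or wild-type replicates 4, 5 or 6), the fit without the interaction gave 1, the fit without a filter 0, edgeR 7 and DESeq2 19. The median log2 fold change of the 78 was 0.23 in the average, beside -0.01 for all genes. By genotype the median was 0.56 in Nr2f6-/-, where 22 rose and 73 of 78 were above 0, and -0.07 in wild type, where 0 passed and 31 of 78 were above 0. The sets overlapped over 6 against 6 samples for every one of the 78 genes. The share of values in these genes was 10.3% to 11.7% in Nr2f6-/- set 1, 14.4% to 15.3% in Nr2f6-/- set 2, 13.3% to 17.8% in wild-type set 1 and 14.6% to 16.4% in wild-type set 2.

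Rps16, a protein of the small ribosomal subunit, had 6940, 8150 and 7322 counts in Nr2f6-/- set 1 and 17397, 33583 and 27581 in set 2. In wild type it had 9868, 20512 and 17841 in set 1 and 28016, 18991 and 19551 in set 2. Wild-type replicate 1 was closest to the low Nr2f6-/- samples of set 1, and replicates 2 and 3 were within the set 2 range. The log2 fold change was 1.13 ± 0.18 (SE, adjusted p = 0.00496), and the IgG2b samples lay between 12236 and 23374. Rps23, next to the decoding centre of the small subunit, followed the same order with 9751 to 14899 in Nr2f6-/- set 1 and 29156 to 46996 in set 2, and 15952, 36334 and 26245 in wild-type set 1 against 24034 to 34832 (0.97 ± 0.18, adjusted p = 0.0168).

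Rpl35 of the large subunit had the largest difference of the group in Nr2f6-/-, from 1131, 689 and 415 to 3059, 4304 and 4922 (log2 fold change 2.55 ± 0.37 SE, adjusted p = 0.00079). In wild type it had 2334, 2968 and 7291 in set 1 and 2388, 4095 and 3844 in set 2, with a difference of -0.14 ± 0.37. Rpl10, also of the large subunit, had 3231, 2859 and 2000 in Nr2f6-/- set 1 and 6512, 10871 and 9396 in set 2 (average log2 fold change 1.15 ± 0.22 SE, adjusted p = 0.0219). Rpsa, which doubles as a laminin-binding protein, had 20110 to 28458 in Nr2f6-/- set 1 and 56386 to 64600 in set 2, while all 6 wild-type samples lay between 45111 and 67167 (average 0.66 ± 0.14, adjusted p = 0.0335). Of 44 called genes with an annotated transcript, 15 (34.1%) had a near-identical copy of their 3′ end elsewhere, beside 655 of 11283 (5.81%) of all genes tested and 237 of 2951 (8.03%) of those with a mean of at least 900. Rps16, Rps23, Rpsa and Psap had no such copy, whereas Rpl35 had 3 and Rpl10 had 10. The average log2 fold change of Rpl35 (1.20) ran from 0.27 to 1.55 over the alternatives other than leaving out 1 sample. That of Rpl10 ran from 0.60 to 1.49, of Rps16 from 1.06 to 1.45 and of Rps23 from 0.90 to 1.29. The called genes had a median level of 5687 normalised counts, against 307 over all genes, and a median transcript length of 870.5 bases (44 genes) against 1329 (11319 genes). Summing every gene with its copies in the table, an alternative chosen after the data were seen, left 53 calls in the average, 42 of them among the 45.

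A few genes outside the list that are known for roles in translation are given here as single genes. Tpt1, the translationally controlled tumor protein, had 7617 to 10201 in Nr2f6-/- set 1 and 17550 to 22944 in set 2 (average log2 fold change 0.75 ± 0.17 SE, adjusted p = 0.0448). Fau, a fusion of a ubiquitin-like domain with ribosomal protein S30, was at 0.71 (adjusted p = 0.0358). Nip7, an assembly factor of the large subunit, was at 0.97 (adjusted p = 0.0408). Eef1a1, elongation factor 1 alpha, did not pass in the average (0.70 ± 0.28 SE, adjusted p = 0.389) and passed in Nr2f6-/- (1.69, adjusted p = 0.0384). Eef1a1 had 10 near-identical copies of its 3′ end, and the part that read assignment among them took in its values was not tested. These 4 genes were named after their values were seen, as were Psap, Rps16, Rps23, Rpsa, Mbnl1, Bcl2a1d, Alad, Ier5 and Nr4a1.

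Genes that fell in the average numbered 11, among them genes of the actin cytoskeleton, mitochondria, RNA splicing and ubiquitin signalling. Arpc3, a subunit of the Arp2/3 complex that branches actin filaments, had 6838, 5462 and 5335 in Nr2f6-/- set 1 and 1914, 1498 and 2721 in set 2. In wild type it had 9924, 3519 and 2419 in set 1 and 1373, 1931 and 2510 in set 2. Wild-type replicate 1 had the highest value, the IgG2b samples lay between 4389 and 8159 with the Nr2f6-/- samples of set 1, and wild-type replicate 3 was within the set 2 range. The log2 fold change was -1.39 ± 0.25 (SE, adjusted p = 0.0168). Another actin regulator, Capzb, which caps filament ends, was higher in set 2 in Nr2f6-/-.

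Genes that fell without overlap included Chchd2, a mitochondrial protein of the intermembrane space that also acts in the nucleus under low oxygen. It ranged from 13798 to 19220 in set 1 and from 8486 to 12622 in set 2 (log2 fold change -0.64 ± 0.13 SE, adjusted p = 0.0373). Peli1, a ubiquitin ligase that restrains T cell activation, ranged from 4242 to 6069 and from 2051 to 3927 (-0.77 ± 0.17, adjusted p = 0.0407). Mis18a, a factor that loads the centromeric histone, ranged from 2168 to 3365 and from 1140 to 2014 (-0.86 ± 0.18, adjusted p = 0.0384). Fam92a had 216, 420 and 398 in Nr2f6-/- set 1 and 14.98, 78.3 and 56.1 in set 2, and 405, 483 and 181 in wild-type set 1 against 19.5, 18.1 and 0.858 in set 2, the last of which is a single read (-4.09 ± 0.90, adjusted p = 0.0407). Mbnl1, a splicing regulator, also fell (-0.63 ± 0.13, adjusted p = 0.0407), with overlap between the sets. B2m, the light chain of class I molecules, had 132466 to 147341 in Nr2f6-/- set 1 and 80308 to 101976 in set 2, and its difference of -0.53 ± 0.12 did not pass in limma (adjusted p = 0.0596) but passed in edgeR.

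The row named for the microRNA miR-703 also differed without overlap. Counts were 3916, 3866 and 4634 in Nr2f6-/- set 1 and 2151, 2412 and 2505 in set 2, and 6155, 5219 and 3206 in wild-type set 1 and 1995, 2489 and 2216 in set 2 (log2 fold change -0.94 ± 0.17 SE, adjusted p = 0.0184). The IgG2b samples of set 1 lay between 2044 and 3180, all below the anti-PD-L1 samples of set 1. A 3′ mRNA library does not capture a mature microRNA, and the letters of this one show what else a read there can be. The mature sequence is given from RefSeq (GRCm38.p6, chr5:98475616-98475636, minus strand) with the seed, bases 2 to 8, in capitals.
mmu-miR-703: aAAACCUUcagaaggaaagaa
These letters, read as DNA, occur without a mismatch in a transcript of Eef1a1 (GENCODE vM21), starting at base 1636 of 1794, and the 109-base hairpin at chr5:98475556-98475664 matches that transcript from base 1608 to 1715 with 98.2% identity. Eef1a1 itself had 352 to 482 in Nr2f6-/- set 1, 1048 to 2024 in set 2 and 728 to 2126 in wild type. The value of the miR-703 row is therefore uncertain as a measure of that locus, and the part that Eef1a1 reads took in it was not tested.

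Mitochondrially encoded transcripts fell in the average for 2 of 16 tested, mt-Nd1 and mt-Nd2, which encode subunits of respiratory complex I, against 0.0928% of all genes tested that fell. The list's median was -0.52 in the average, -0.89 in wild type and -0.19 in Nr2f6-/-. In wild type mt-Nd2 had 19725, 23608 and 16812 in set 1 and 8437, 7181 and 9104 in set 2 (log2 fold change -1.28 ± 0.20 SE, adjusted p = 0.0137). In Nr2f6-/- it had 17451, 15212 and 16660 against 11174, 17204 and 16089, which overlapped (-0.17 ± 0.20, adjusted p = 0.869). The difference between the genotypes for mt-Nd2, 1.10 ± 0.28, did not pass (adjusted p = 0.342). The 3′ end of mt-Nd2 had a near-identical copy elsewhere in the annotation, and the part that read assignment took in its values was not tested. mt-Nd1 had 45123, 85695 and 57610 in wild-type set 1 and 23386, 20502 and 35160 in set 2 (average -0.82 ± 0.18, adjusted p = 0.0408). The wild-type IgG2b samples, which belong to set 1, had 6380 to 9975 for mt-Nd2 and 23545 to 24344 for mt-Nd1, close to wild-type set 2 under blockade. Of 79 nuclear-encoded genes of oxidative phosphorylation 1 rose in the average, Cox6a1 of cytochrome c oxidase (0.89 ± 0.20, adjusted p = 0.0492), against 0.287% of all genes tested. The list's median was 0.02, and edgeR called 0 and DESeq2 called 7. In Nr2f6-/- 2 rose, against 0.607% of all genes tested, with 52 of 79 above 0 and a median of 0.14. In wild type 0 rose, with 35 of 79 above 0 and a median of -0.03.

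**Figure D3:**
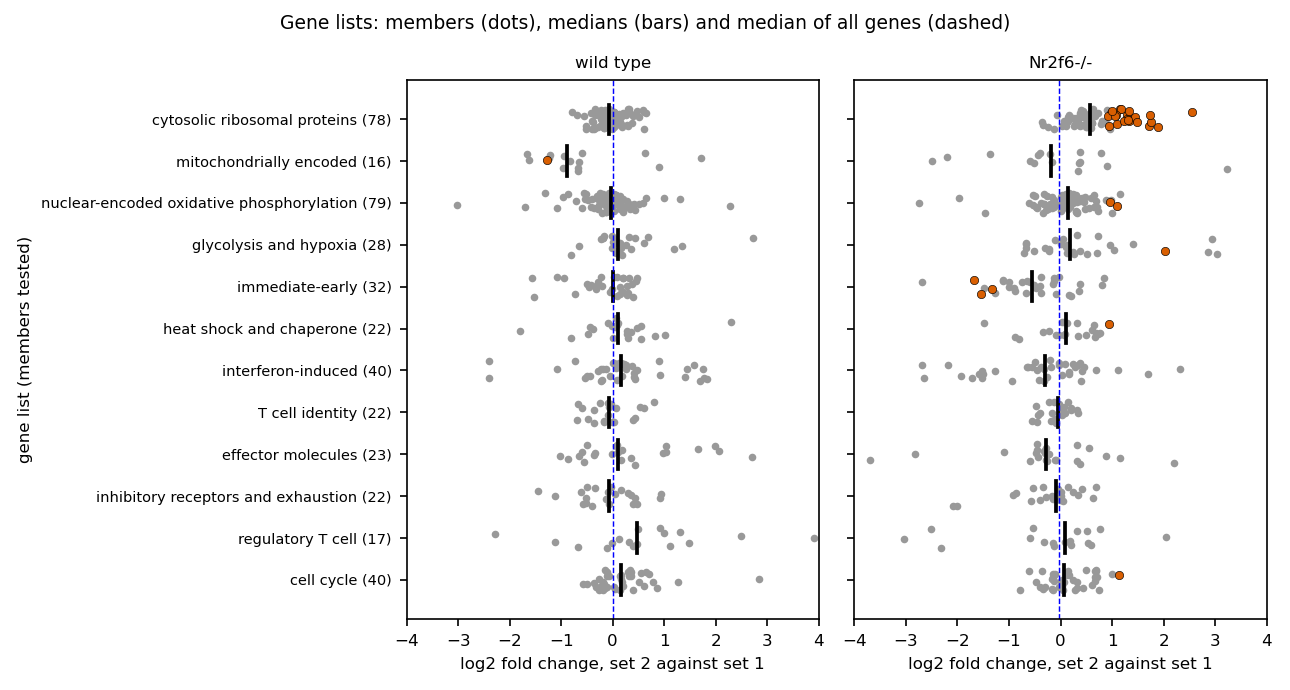
Log2 fold change of set 2 against set 1 for the members of 12 gene lists in wild type (left) and Nr2f6-/- (right), with orange points for members past the threshold in that genotype, bars for list medians and a dashed line for the median of all genes; 2 members lie outside the axes. Ribosomal protein genes have a median of 0.56 in Nr2f6-/- and -0.07 in wild type, and immediate-early genes -0.55 and 0.01.

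In Nr2f6-/- samples the 84 genes past the threshold did not overlap between 3 and 3 samples, a property that 16% of all genes tested had (8.04% higher and 7.94% lower in set 2). In wild type the sets did not overlap for 10.2% of all genes tested (4.97% higher and 5.26% lower) and for 22 of the 45 genes called in the average. The calls were made on these same values, so neither the 84 nor the 22 is separate support. Ppp4c, the catalytic subunit of protein phosphatase 4, had 52.1, 65.1 and 23.1 in set 1 and 502, 677 and 491 in set 2 (log2 fold change 3.65 ± 0.66 SE, adjusted p = 0.00828). All 6 wild-type samples, from 258 to 721, were far above the Nr2f6-/- samples of set 1, and the Nr2f6-/- IgG2b samples had 95.8 to 106. Bcl2a1d, a member of the antiapoptotic A1 family with near-identical copies, had 408 to 691 and 2124 to 3358 (2.19 ± 0.33, adjusted p = 0.000977). Alad, an enzyme of heme synthesis, and Ppp1r14b, an inhibitor of protein phosphatase 1, differed by 2.12 (adjusted p = 0.0188) and 2.28 (adjusted p = 0.0188). E430018J23Rik, a transcript without an assigned function here, had 0, 49.5 and 8.50 in set 1 and 375, 291 and 284 in set 2 (5.33 ± 1.28, adjusted p = 0.0481). In wild type it also rose without overlap, from 86.7, 79.5 and 63.8 to 358, 186 and 371. Its difference between the genotypes did not pass in limma (adjusted p = 0.80).

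In Nr2f6-/- 3 of 32 immediate-early genes tested fell, against 0.101% of all genes tested, and 0 rose. T cells switch these genes on within minutes of receptor stimulation. In Nr2f6-/- edgeR called 1 of the 32 (Ier5) and DESeq2 called 3. Junb, an AP-1 subunit, had 16558, 16264 and 13878 in set 1 and 7059, 5163 and 3071 in set 2 (log2 fold change -1.69 ± 0.35 SE, adjusted p = 0.0209). Ier5 had 1959, 1480 and 1797 against 730, 569 and 494 (-1.55 ± 0.34, adjusted p = 0.0277). Nr4a1, a nuclear receptor induced by antigen signals, had 3972, 3129 and 2588 against 1613, 1095 and 1154 (-1.33 ± 0.31, adjusted p = 0.0409). In wild type Junb had 9618, 4064 and 2505 in set 1 and 3468, 7126 and 5963 in set 2, and the difference was 0.20 ± 0.35. The IgG2b samples of both genotypes had 11275 to 21886 for Junb, above every wild-type sample under blockade. Of the 32 immediate-early genes tested 0 passed in the average by limma, 0 by edgeR and 2 by DESeq2. At an unadjusted p under 0.05 1 was higher and 5 were lower, and the median was -0.40.

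Of the 12 genes that fell in Nr2f6-/-, Tap2, Atp6v1h and Syt4 are given here as single genes. Tap2, a subunit of the peptide transporter of class I presentation, had 3080, 3043 and 3113 in set 1 and 638, 502 and 780 in set 2 (log2 fold change -2.29 ± 0.52 SE, adjusted p = 0.0343). In wild type replicate 1 had 2843 and replicates 2 and 3 had 305 and 459, beside 491 to 1016 in set 2, and the IgG2b samples had 1869 to 3298. Atp6v1h, a subunit of the vacuolar proton pump, had 2693 to 3134 and 703 to 1302 (-1.63 ± 0.33, adjusted p = 0.0158). Syt4, a vesicle protein of neurons, had 228, 220 and 97.2 in set 1 and 0.999, 0 and 0 in set 2 of Nr2f6-/- (adjusted p = 0.0337), where 1 read in 3 samples remained, and 21.96 to 445 in wild type.

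The set difference itself differed between the genotypes for 4 genes, in each case toward higher values in set 2 of Nr2f6-/-. mt-Rnr2 (chrM:1094-2675, GRCm38), the large ribosomal RNA of mitochondria and the most abundant row of the 4, had 417074, 422814 and 472788 in Nr2f6-/- set 1 and 568828, 864634 and 868933 in set 2, but 785086, 1176400 and 926539 in wild-type set 1 and 425639, 352813 and 454357 in set 2. The difference between the genotypes was 2.002 ± 0.32 (SE, log2 scale, adjusted p = 0.0113). Wild type was above Nr2f6-/- in set 1 without overlap, and in set 2 every Nr2f6-/- sample was above every wild-type sample. Malat1 (chr19:5795690-5802672), a long noncoding RNA kept in the nucleus, had 23764 to 34268 in Nr2f6-/- set 1 and 59625 to 75616 in set 2, and 33231, 70374 and 72343 in wild-type set 1 against 29972 to 32315 (difference 2.003 ± 0.33, adjusted p = 0.0113).

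Rpl10-ps3 (chr9:50344201-50344968), a pseudogene copy of Rpl10, had 2462 to 2894 in Nr2f6-/- set 1 and 4542 to 6045 in set 2, and 6266 to 10228 in wild-type set 1 against 3890 to 5049 in set 2 (difference 1.92 ± 0.32 SE, adjusted p = 0.0113). Of its last 300 bases, 272 aligned to Rpl10 transcripts without a mismatch, so reads of the pair can be exchanged, and Rpl10 itself differed by 1.14 ± 0.44 (adjusted p = 0.72). Capzb (chr4:139192899-139291818) had 13330 to 14971 in Nr2f6-/- set 1 and 33793 to 42082 in set 2, whereas the 6 wild-type samples lay between 25374 and 40228 in set 1 and between 25962 and 33353 in set 2 (difference 1.48 ± 0.27, adjusted p = 0.0346). The IgG2b samples of both genotypes had 13608 to 20322 for Capzb, near Nr2f6-/- set 1. At an unadjusted p under 0.05 the difference between genotypes was met by 756 genes, and summing copies gave 10 calls that included these 4.

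**Figure D4:**
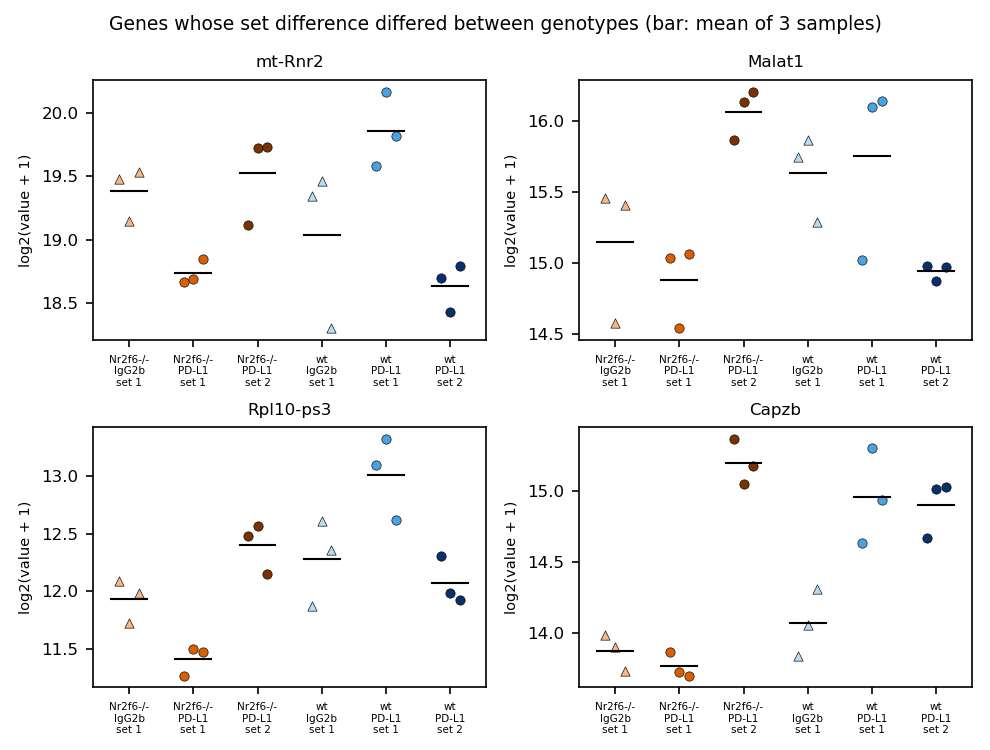
Normalised counts of mt-Rnr2, Malat1, Rpl10-ps3 and Capzb on the log2(value + 1) scale for all 18 samples by group, with a bar for the mean of 3 samples. Under blockade the Nr2f6-/- samples of set 2 are above those of set 1 for each gene, while the wild-type samples of set 2 are below those of wild-type set 1 for mt-Rnr2, Malat1 and Rpl10-ps3 and overlap for Capzb.

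Wild-type replicates 2 and 3 of set 1 stood apart from the other set 1 samples at many of these genes. At the 45 genes called in the average, the value lay within the set 2 range at 22 genes for replicate 2, at 22 for replicate 3 and at 2 for wild-type replicate 1, beside 2 or 3 for each Nr2f6-/- sample. The 45 were selected for a set difference in these same samples, and 35 of them differed more in Nr2f6-/-. Low counts for the Nr2f6-/- samples follow in part from that selection, and the same count over all genes tested is not given here. The first principal component of the 1385 genes with a mean of at least 2000 held 24.5% of the variance over all 18 samples and separated libraries 28 to 37 from the later ones. Libraries 28 to 33, all Nr2f6-/-, had scores of 5.93 to 10.8, with the IgG2b samples 28 to 30 at 5.93 to 7.71. Libraries 34 to 37, all wild type, had 0.881 to 2.80, and of these only 37, at 2.80, was anti-PD-L1. Every later library was anti-PD-L1, so over all 18 samples antibody and library number cannot be fully told apart. Libraries 38 and 39, which are these replicates 2 and 3, had -7.41 and -6.69, and the 6 libraries of set 2 had -8.95 to -4.96. A separate first component of the same genes over the 12 anti-PD-L1 samples alone held 30.1% of the variance. In it libraries 31 to 33 and 37 had scores of 3.94 to 13.4, and the others had -8.36 to -3.37. Its largest weights were those of Rpl35, H2-T23, Junb, 1110004F10Rik, Rgs2, Prpf19 and Arpc3. No label marks a change between libraries 37 and 38, and what moved with the number was not tested.

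**Figure D5:**
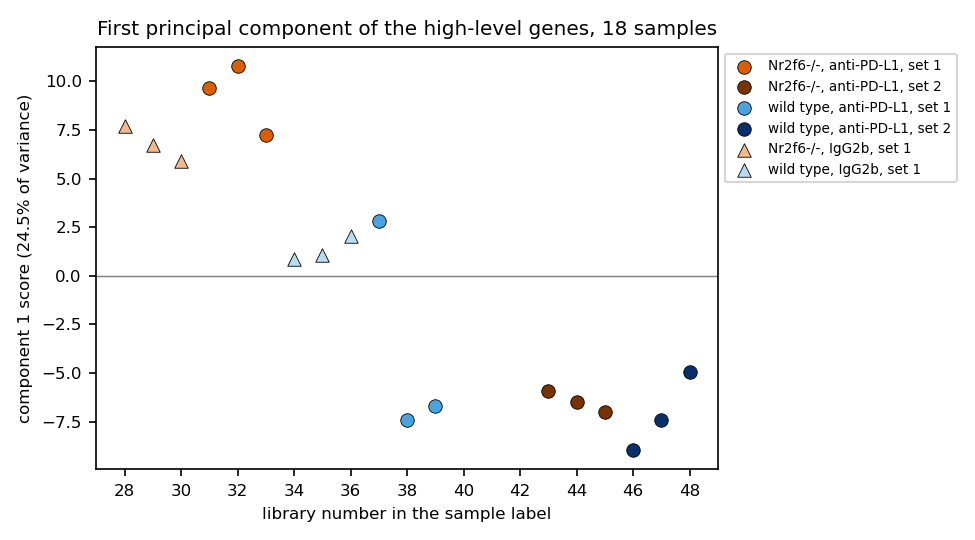
Score on the first principal component of 1385 high-level genes (24.5% of the variance, y axis) against the library number (x axis) for 18 samples. Libraries 28 to 37 have scores above 0 and libraries 38 to 48 below 0, including wild-type replicates 2 and 3 of set 1 at -7.41 and -6.69. All IgG2b samples are among libraries 28 to 37.

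Leaving out wild-type replicates 2 and 3 together, a choice made after these values were seen that leaves 1 wild-type sample in set 1, gave 65 calls in the average, 47 higher and 18 lower, of which 26 were among the 45. This fit assumes that the lone sample varies like the others. In this fit 19 ribosomal protein genes rose and 0 mitochondrially encoded genes passed by limma, 0 genes passed in wild type (618 at an unadjusted p under 0.05) and 0 passed for the difference between genotypes (438 at an unadjusted p under 0.05). Leaving out wild-type replicate 1 alone gave 18 average calls, 5 of them ribosomal protein genes, 7 in wild type and 23 for the difference between genotypes. Leaving out any other 1 of the 12 samples gave 0 or 1 for the difference.

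Over the most variable genes the library set took no larger share of the variance than other assignments of the same samples often did. Among the 500 most variable genes the library set within genotype took 18.4% of the variance. The median was 17.7% over the 400 assignments of the set label within genotype (exact permutation p = 0.15, one-sided). Exchanging the 2 set labels within a genotype leaves this share unchanged, so the smallest p it allows is 0.01. Over the 1385 genes with a mean of at least 2000, a gene set chosen after seeing the data, the share was 30.9% against a median of 15.4% (exact permutation p = 0.01). Pooled over the genotypes, the spread between samples of 1 group was alike in both sets. Its median standard deviation on the log2 scale was 0.772 in set 1 and 0.797 in set 2, and 50.6% of genes varied more in set 2. Leaving out wild-type replicate 2 lowered the set 1 value to 0.652 and raised that share to 59.3%. For single groups the medians were 0.570 in set 1 and 0.666 in set 2 of Nr2f6-/-, and 0.739 and 0.642 in wild type.

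The genes that define the study's question were among those without a call. Ifng, the effector cytokine of tumor-reactive T cells, had 3617 to 4700 in set 1 and 2662 to 8672 in set 2 (log2 fold change 0.31 ± 0.20 SE, adjusted p = 0.661). Pdcd1, which encodes PD-1, had 7391 to 12437 and 7614 to 11918 (0.09 ± 0.15, adjusted p = 0.889). Cd274, which encodes PD-L1, was at -0.29 ± 0.53 (adjusted p = 0.894), Ctla4 at -0.25 ± 0.30 (adjusted p = 0.837), Il2 at -0.52 ± 0.56 (adjusted p = 0.821) and Tnf at 0.73 ± 1.02 (adjusted p = 0.86). Ccl5, the most abundant chemokine, had 113986 to 148251 and 108648 to 157300 in Nr2f6-/- and 37734, 43498 and 111441 against 25409 to 45817 in wild type, with wild-type replicate 3 alone at the Nr2f6-/- level (-0.37 ± 0.20, adjusted p = 0.598). With these standard errors only differences of the size seen in the genes above could be called, and a difference that missed the threshold is not shown to be absent.

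Of 28 gene lists 24 had 0 calls in the average by limma. Over their 463 tested memberships 26 were higher and 27 lower at an unadjusted p under 0.05, edgeR called 0 and DESeq2 called 13. Among T cell programs, the median was -0.10 for 22 T cell identity genes, -0.21 for 22 inhibitory receptor and exhaustion genes, -0.09 for 23 effector molecules, -0.03 for 20 naive and memory genes and 0.29 for 17 regulatory T cell genes. Trac and Trbc2, which encode constant regions of the T cell receptor, were called by DESeq2 but not by limma. Signalling and stress lists had medians of -0.11 for 40 interferon-induced genes, -0.29 for 25 chemokines and receptors, 0.05 for 22 heat shock genes and -0.18 for 15 genes of the unfolded protein and ATF4 response. Growth lists had medians of 0.10 for 40 cell cycle genes and 0.23 for 22 genes of cholesterol synthesis. In Nr2f6-/- the heat shock list had 1 call, the chaperone Hsp90ab1 (0.94, adjusted p = 0.0149), and the cell cycle list 1, the chromatin protein Hmgb2 (1.14, adjusted p = 0.0153). Replication-dependent histones, whose transcripts lack a poly(A) tail, had medians of 0.95 in Nr2f6-/- and -0.55 in wild type over 51 genes, with 0 calls in Nr2f6-/- by limma (9 higher and 0 lower at an unadjusted p under 0.05), 0 by edgeR and 3 by DESeq2. Small nuclear and nucleolar RNAs (22 genes) had a median of -0.31 and long noncoding RNAs (13 genes) one of 0.19.

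Markers of other cells that a CD3+ sort could still hold were among the lists with 0 calls in the average by limma and edgeR, and their part in the results was not tested. List medians in the average were -0.01 for 21 macrophage and monocyte genes, -0.07 for 13 dendritic cell and MHC class II genes and -0.53 for 6 B cell genes. They were -0.37 for 9 natural killer cell genes, 0.02 for 11 melanocyte genes and -0.44 for 8 genes of stroma and endothelium. For 2 neutrophil genes the median was 1.71, and for 6 red cell and platelet genes -0.69. Some lists moved in opposite directions in wild type and Nr2f6-/-. These medians were 0.28 and -0.56 (macrophage and monocyte), 0.19 and -0.58 (dendritic cell and MHC class II), 0.37 and -0.33 (melanocyte), and 2.07 and -3.73 (red cell and platelet). B cell, natural killer cell and stroma medians were below 0 in both genotypes. DESeq2 called 1 gene each of the B cell, natural killer cell and stroma lists. Summed over the list, macrophage and monocyte markers had 10087 to 18106 in set 1 and 11223 to 18713 in set 2, melanocyte markers 1158 to 5723 and 1215 to 9379, and natural killer cell markers 9093 to 17309 and 5537 to 14302. Neutrophil markers summed to at most 71.0 in set 1 and 322 in set 2, and red cell and platelet markers to at most 2221 and 11128. Klrd1, a natural killer receptor that CD8+ T cells also make, came nearest to the threshold with 3049 to 7892 and 1488 to 5091 (log2 fold change -0.71 ± 0.18 SE, adjusted p = 0.0972). In a bulk sample fewer cells of a type and less RNA per cell cannot be told apart.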

How the data were processed

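Values were taken from 1 deposited table of 37236 genes and 18 samples. Per the labels and the study's methods, the authors trimmed reads (Cutadapt, Trimmomatic), aligned them to mm10 (STAR, then Bowtie2), counted them per gene (HTSeq) and normalised with DESeq2. Versions, annotation and strand setting were not given in the sources used here. The deposited signal was a count divided by 1 size factor per sample: all values were whole multiples (within 0.01 reads) of what 1 read was worth, 0.821 to 1.21.

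The 11854 genes with a mean of at least 10 over the 12 anti-PD-L1 samples were fitted as log2(value + 1) with limma 3.58.1 (4 group means, eBayes with trend, two-sided, Benjamini-Hochberg threshold 0.05). A fold change on this scale understates low genes. Count tests on the recovered reads (edgeR 4.0.16, DESeq2 1.42.0) were alternatives. The fits were tried on simulated counts in which 200 genes differed between the sets. In the average limma recovered 173 with 12 false calls, edgeR 177 with 6 and DESeq2 177 with 19. These counts were drawn independently with a dispersion set by level, so samples that stand apart were not imitated. Near-identical copies were sought with BLAST+ 2.17.0 (last 300 bases, 95% identity over 80%). Coordinates are GRCm38 (GENCODE vM21). A value of 0 allows up to 3 reads, for counting error only.

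Named genes were those of largest change among calls without overlap between the sets (10 per direction for the average, and 5 among those with a mean of at least 200; 5 per direction for each genotype and for the genotype difference, the last without the overlap condition), filled with the smallest unadjusted p where too few passed, 9 fixed genes and 2 to 4 members per list. Others are said to be chosen after their values were seen. Members and lists were chosen with earlier results of these data known. Replicate numbers were not taken as pairs, and the alternatives are given at the end.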

Additional observations from a re-analysis of the deposited data

Results flagged for a closer look

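The effect of library set differed between wild type and Nr2f6-/- for 4 genes, by a test of the difference itself in limma (adjusted p under 0.05). The difference, Nr2f6-/- minus wild type on the log2 scale, was 2.002 for mt-Rnr2, 2.003 for Malat1, 1.92 for Rpl10-ps3 and 1.48 for Capzb. The set effect was 0.79 in Nr2f6-/- and -1.22 in wild type for mt-Rnr2, 1.19 and -0.82 for Malat1, 0.98 and -0.94 for Rpl10-ps3, and 1.43 and -0.05 for Capzb. Leaving out any 1 Nr2f6-/- sample, or wild-type replicate 2, 4, 5 or 6, gave 0 genes by this test in limma (619 to 782 at an unadjusted p under 0.05), as did leaving out wild-type replicates 2 and 3 together (438). Leaving out wild-type replicate 3 gave 1 gene and leaving out replicate 1 gave 23. No group of 6 samples had a value far from the others among 14 groups of library measures examined.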

How the results depend on the processing

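The number of genes past the threshold moved with the settings, and the cause was not tested. All 45 genes called in the average kept their direction, but these fits share most of their samples, so this is no independent support. For the average (45 genes), counts were 0 without a filter on low values (1297 at an unadjusted p under 0.05; more genes tested), 23 with edgeR, 273 with DESeq2 (152 higher, 121 lower), 7 in a fit without the interaction, 80 with sample weights, 3 without the 2 libraries absent from the study's component panel and 1126 at an unadjusted p. For wild type (1 gene), counts were 2 with a pseudocount of 10, quantile normalization, equal totals or edgeR, 82 with DESeq2, 789 at an unadjusted p, and 0 without a filter, with only the 2 groups compared, without the panel libraries or without wild-type replicates 2 and 3. For Nr2f6-/- (84 genes), counts were 4 without a filter, 278 with DESeq2, 128 with all 18 samples, 0 with only the 2 groups compared, 0 without the panel libraries and 1077 at an unadjusted p. For the difference between genotypes (4 genes), counts were 0 without a filter, without the panel libraries or without wild-type replicates 2 and 3, 2 with quantile normalization, 127 with DESeq2, 7 with all 18 samples, 10 with copies summed and 756 at an unadjusted p. The counts without replicates 2 and 3, with copies summed and over genes of mean at least 2000 were chosen after seeing the data.

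Scaling to equal totals moved the share of higher calls in Nr2f6-/- from 85.7% to 66.2% of 65, and quantile normalization to 75.5% of 94. Leaving out 1 sample gave 0 to 40 genes in the average, 0 to 7 in wild type, 0 to 98 in Nr2f6-/- and 0 to 23 for the difference. In the average 0 genes passed without Nr2f6-/- replicate 6, or wild-type replicates 5 or 6. In Nr2f6-/- 0 passed without its replicate 6 and 2 without its replicate 5. For the difference 0 passed in 10 of the 12 fits, 1 without wild-type replicate 3 and 23 without wild-type replicate 1. The share of variance rose to 30.9% (exact permutation p = 0.01) over genes of mean at least 2000. The median spread was 0.629 in set 1 and 0.636 in set 2 at a mean of at least 50. Over fits without 1 sample it was 0.652 to 0.772 in set 1 and 0.735 to 0.797 in set 2, and 47.4% to 59.3% of genes varied more in set 2.

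With the replicate number as a replicate block the counts were 46, 1, 84 and 4, and same-numbered samples did not deviate together (r from -0.01 to 0.03 over 6 pairs), so the numbers were not taken to pair the samples.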
